A study of Homo sapiens with 4 samples.

Results

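Glycolysis genes and targets of the hypoxia-inducible factor HIF were followed in 2 human mantle cell lymphoma lines, Z138 and Mino, after knockdown of the kinase BTK. The set holds 39 of the 25277 gene symbols in the table, taken from a list of names drawn up with earlier results of these data known. It has 4 glucose and lactate transporters, 17 glycolytic enzymes, 3 regulators of glycolysis, HIF1A itself and 14 HIF targets outside glucose metabolism. The groups were a Z138 BTK hairpin culture (shBTK), a Z138 control culture (sc4), a Mino BTK hairpin culture and a Mino control culture. Each was a stable line carrying a doxycycline-switched vector, each had been given doxycycline for 48 hours, and each gave 1 library. Only 1 BTK hairpin per line was analysed here. The sequence in the control vector, and whether the stable lines were clones or pools, are not stated by the labels. Values are FPKM (fragment numbers scaled for transcript length and library size), so levels of different genes can be set side by side per length.

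Cells take up glucose through SLC2A carriers, break it down to pyruvate through the glycolytic enzymes, and either burn pyruvate in mitochondria or reduce it to lactate, which leaves through SLC16A carriers. HIF1A is the oxygen-regulated subunit of HIF. In well-oxygenated cells the EGLN prolyl hydroxylases mark its protein for destruction, so its protein level is set largely after transcription. When stabilised, it raises transcription of most glycolytic genes and of genes for vessel growth, mitophagy, pH control and its own hydroxylases. Many lymphoma lines ferment glucose to lactate even with oxygen present, and B cell receptor signalling is known to promote glucose use in B cells.

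The hairpin's target was lower in both lines. BTK was at 12.4 FPKM in the Z138 hairpin culture and 51.0 in the Z138 control, and at 9.84 FPKM in the Mino hairpin culture and 37.0 in the Mino control. Over the 2 lines, both of them lower, the mean log2 ratio came to −1.88 with an SE of 0.13 and a limma adjusted p of 0.000964. Without the filter on low values the ratio was the same and the limma adjusted p 0.101. Summed FPKM over all symbols ran from 669013 to 740192 per library, and read depth is unknown. All 6 B lineage markers were at 3.34 FPKM or more in every library, but CCND1, the cyclin gene that marks mantle cell lymphoma, was at 591 to 600.5 FPKM in Z138 and only 2.62 to 3.18 FPKM in Mino. SOX11, another marker of this lymphoma, was at 19.8 to 22.1 FPKM in Z138 and 21.5 to 23.6 FPKM in Mino. The low CCND1 goes against the Mino label, and the identity of that stock was not tested, so Mino here means the libraries labelled so. The summed level of 6 markers of other cells was 2.84 to 3.05 FPKM in Z138 and 11.9 to 12.2 FPKM in Mino, with CD14, CD3D and LYZ under 0.25 FPKM everywhere. The highest of these in Mino were EPCAM, an epithelial gene, at 7.29 to 7.56 FPKM and COL1A1, a collagen gene, at 3.57 to 4.55 FPKM, and in Z138 the T cell gene CD3E at 1.69 to 2.07 FPKM; their part in the results was not tested. An exact 0 in this table need not mean absence: the Z138 control listed EEF1A1, a translation factor gene, at 0, against 6404 to 6976 FPKM elsewhere.

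Most of the 39 genes were lower with the BTK hairpin, with a lower median in Mino than in Z138, but 0 of 39 passed when both lines were tested together. On the log2(FPKM + 1) scale, hairpin minus control, their median ratio was −0.11 in Z138 and −0.36 in Mino, beside 0.03 and −0.01 over all 11484 tested symbols. All 39 had a mean of at least 1 FPKM, the level needed for testing. In Z138, 26 of 39 were below their control, where 43.7% of all tested symbols were. In Mino, 37 of 39 were below their control, where 51.9% of all tested symbols were. In both lines together, 25 of 39 were below control (64.1%), a state shared by 19.4% of all tested symbols. At a cutoff of 1.5-fold, 0 of 39 were lower in Z138, where 0.819% of all symbols were, and 7 of 39 in Mino, where 1.24% were. At a smaller cutoff of 0.32 on the log2 scale the counts were 4 in Z138 and 23 in Mino, against 4.17% and 5.75% of all symbols. Past that cutoff in both lines were 2 of 39, ANKRD37 and PFKFB4, where 0.488% of all symbols were. In each line 0 of 39 were 1.5-fold higher, where 0.94% of all symbols were in Z138 and 0.923% in Mino. Opposite signs in the 2 lines were seen for 13 of 39, against 56.2% of all symbols. With 1 library per line and vector, these counts have no replicate check. The genes were chosen with earlier results of these data known, so an excess over all symbols is no independent support. The cultures were sequenced in bulk, so less RNA per cell and fewer cells expressing a gene cannot be told apart.

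Across both lines, 0 of 39 genes passed in limma with Benjamini-Hochberg adjustment over all tested symbols, where 0.122% of symbols (14) passed. At an unadjusted p under 0.05 there were 14 of 39 (35.9%), all lower, beside 2.79% of all tested symbols. That share too comes from genes chosen with earlier results known. The lowest adjusted p among the members was 0.81, for ANKRD37. Rescaling moved the Z138 count more than the Mino count: 23 of 39 were below control in Z138 with libraries rescaled to an equal FPKM sum, and 30 of 39 with median-ratio scaling, while Mino stayed at 37 in both. The Z138 median of the members was −0.06 with equal sums, beside 0.07 over all tested symbols. With median-ratio scaling these medians were −0.17 and −0.01. After removal of trends with GC content and length they were −0.05 and 0.0023. The share of all symbols below control was not computed under these settings.

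**Figure D1:**
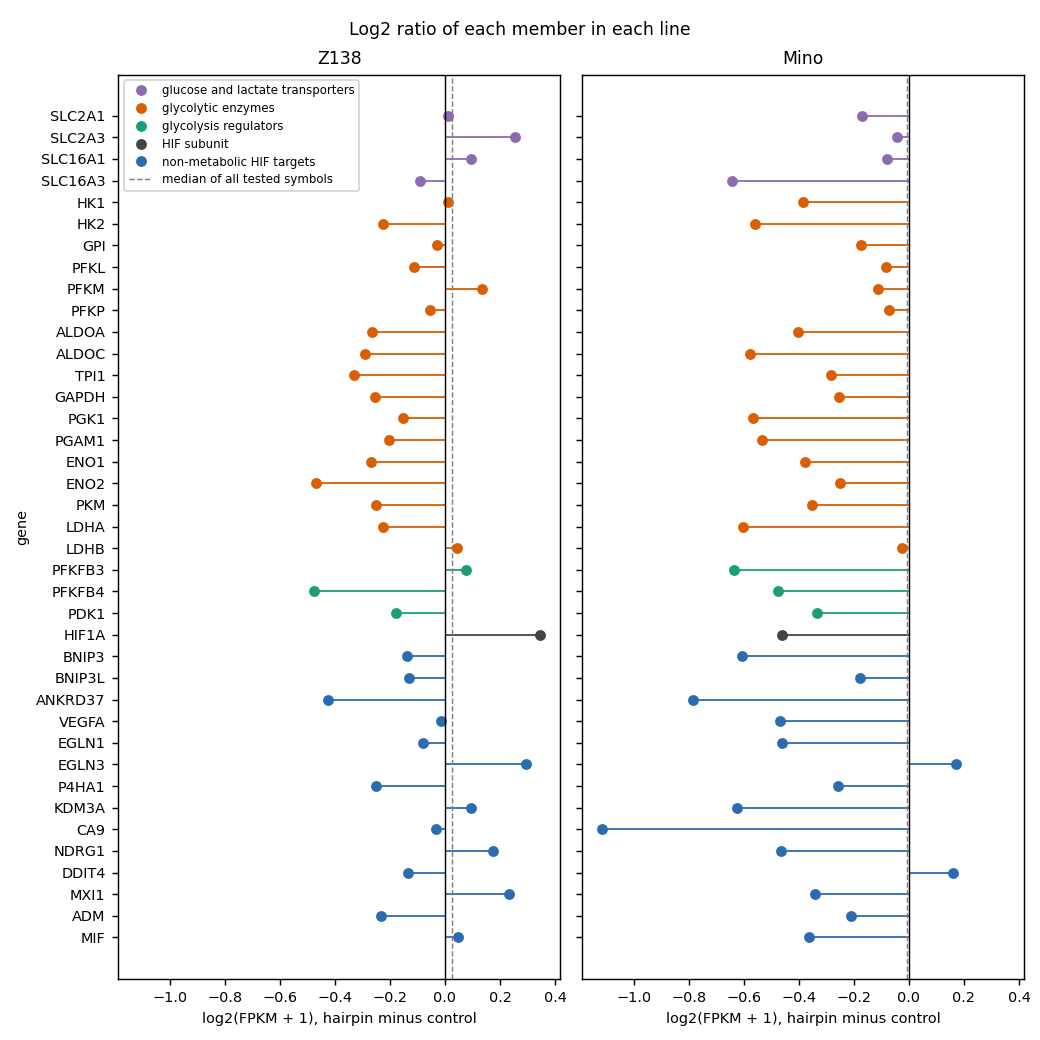
Log2(FPKM + 1) of the hairpin culture minus the control culture for all 39 genes, by role, in Z138 (left) and Mino (right). Points left of 0 are lower with the hairpin; 26 genes lie there in Z138 and 37 in Mino, and the dashed lines mark the medians of all tested symbols (0.03 and −0.01).

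The promoters of the 6 genes that were lowest in both lines alike (ranked by the smaller of the 2 ratios) are shown, because HIF acts through a short core motif. Capitals mark ACGTG or GCGTG on either strand, that is, also CACGT and CACGC as read here; CACGTG holds ACGTG on both strands. The sequences run 5′ to 3′ along the gene, from 250 bases before to 50 bases after its start, and come from RefSeq on GRCh38.p14.
PFKFB4, chr3:48556754-48557053, minus strand: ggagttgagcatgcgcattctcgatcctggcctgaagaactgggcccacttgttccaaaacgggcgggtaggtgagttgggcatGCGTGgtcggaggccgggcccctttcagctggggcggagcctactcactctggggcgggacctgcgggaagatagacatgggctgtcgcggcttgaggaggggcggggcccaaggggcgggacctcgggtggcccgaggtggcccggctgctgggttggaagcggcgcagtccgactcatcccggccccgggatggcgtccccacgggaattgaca
ANKRD37, chr4:185396591-185396890, plus strand: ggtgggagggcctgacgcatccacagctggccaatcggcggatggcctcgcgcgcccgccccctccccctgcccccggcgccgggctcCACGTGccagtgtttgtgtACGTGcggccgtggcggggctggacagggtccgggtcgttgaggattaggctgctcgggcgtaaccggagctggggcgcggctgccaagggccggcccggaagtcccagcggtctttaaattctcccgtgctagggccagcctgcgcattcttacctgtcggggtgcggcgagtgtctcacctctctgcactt
ALDOC, chr17:28576846-28577145, minus strand: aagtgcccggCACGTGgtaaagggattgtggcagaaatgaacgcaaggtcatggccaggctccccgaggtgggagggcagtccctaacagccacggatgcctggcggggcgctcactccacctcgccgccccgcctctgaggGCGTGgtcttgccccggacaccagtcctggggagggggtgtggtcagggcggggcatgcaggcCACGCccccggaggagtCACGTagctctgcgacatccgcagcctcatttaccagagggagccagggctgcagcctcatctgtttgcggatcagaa
TPI1, chr12:6867281-6867580, plus strand: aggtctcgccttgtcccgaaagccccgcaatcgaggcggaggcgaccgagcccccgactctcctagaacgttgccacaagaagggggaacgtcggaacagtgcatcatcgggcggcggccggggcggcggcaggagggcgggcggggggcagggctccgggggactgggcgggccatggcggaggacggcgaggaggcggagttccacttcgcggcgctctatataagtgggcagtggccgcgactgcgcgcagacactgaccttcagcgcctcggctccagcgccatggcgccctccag
ENO1, chr1:8878637-8878936, minus strand: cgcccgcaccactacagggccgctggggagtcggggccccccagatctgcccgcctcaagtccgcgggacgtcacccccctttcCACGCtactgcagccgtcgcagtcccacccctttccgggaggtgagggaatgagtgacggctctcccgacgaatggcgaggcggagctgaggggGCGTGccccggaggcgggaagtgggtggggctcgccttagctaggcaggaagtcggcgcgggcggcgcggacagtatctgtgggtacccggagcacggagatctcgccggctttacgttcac
ALDOA, chr16:30064029-30064328, plus strand: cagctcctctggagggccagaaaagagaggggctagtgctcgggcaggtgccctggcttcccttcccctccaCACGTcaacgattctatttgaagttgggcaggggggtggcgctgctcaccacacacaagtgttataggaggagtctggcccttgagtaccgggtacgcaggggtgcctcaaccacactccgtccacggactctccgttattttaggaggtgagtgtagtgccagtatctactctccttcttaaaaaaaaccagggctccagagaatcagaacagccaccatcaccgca
ANKRD37 and ALDOC each held the palindrome CACGTG, while TPI1 held neither core motif in this window. A promoter was found for 34 of the 39 genes, and 25 of them (73.5%) held at least 1 core motif, as did 48.4% of all 27305 promoters of this length. Those promoters, 1 per symbol, were not matched to the members in expression or GC content, and the members were listed partly as HIF targets. The difference was not tested. By role, the motif was found in 12 of 17 enzyme promoters and in 9 of 11 promoters of non-metabolic HIF targets. It was found in 18 of 23 promoters of genes lower in both lines and in 7 of 11 promoters of the other members. These are letter matches, not measured binding.

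The 4 transporters had log2 ratios between −0.09 and 0.25 in Z138, and the 3 transporters other than SLC2A3 between −0.64 and −0.08 in Mino, the lactate exporter SLC16A3 being lowest in both. SLC16A3, a lactate exporter and HIF target, was at 4.86 FPKM in the Z138 hairpin culture and 5.25 in its control, and at 16.3 FPKM in the Mino hairpin culture and 26.0 in its control. The log2 ratio was −0.09 in Z138 and −0.64 in Mino. SLC16A1, the more widely expressed lactate carrier, had ratios of 0.10 and −0.08, at 30.3 FPKM with the hairpin and 28.3 in the control in Z138, and 23.1 with the hairpin and 24.5 in the control in Mino. SLC2A1, the main glucose carrier of dividing cells, was at 13.0 FPKM with the hairpin and 12.9 in the control in Z138, and at 8.95 FPKM with the hairpin and 10.2 in the control in Mino. SLC2A3, a high-affinity glucose carrier, was at 4.26 FPKM with the hairpin and 3.41 in the control in Z138. It was near 0 in both Mino cultures (0.0115 FPKM with the hairpin and 0.0413 in the control), where the pseudocount sets its ratio, and it is counted among the genes below control there.

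Among the enzymes of the early steps, both hexokinase genes were lower in Mino, and GPI and the phosphofructokinase genes lay within 0.18 of their controls on the log2 scale in both lines. HK2, the HIF-responsive hexokinase that traps glucose in the cell, was at 13.3 FPKM with the hairpin and 15.7 in the control in Z138, and at 13.7 FPKM with the hairpin and 20.8 in the control in Mino. HK1, the constitutive form, was at 8.41 FPKM with the hairpin and 8.34 in the control in Z138 and at 20.2 FPKM with the hairpin and 26.7 in the control in Mino. Thus HK2 was below its control in both lines and HK1 in Mino. GPI, which isomerises glucose phosphate, had log2 ratios of −0.03 in Z138 and −0.17 in Mino. The phosphofructokinase genes, which encode subunits of the committed step, had ratios from −0.11 to 0.14. PFKL was at 85.7 FPKM with the hairpin and 92.7 in the control in Z138 and at 165 FPKM with the hairpin and 175 in the control in Mino. PFKP, the platelet form, was at 42.4 FPKM with the hairpin and 44.0 in the control in Z138 and at 38.7 FPKM with the hairpin and 40.8 in the control in Mino. PFKM, the muscle form, was at 40.2 FPKM with the hairpin and 36.5 in the control in Z138, above its control, and at 8.25 FPKM with the hairpin and 9.01 in the control in Mino.

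From aldolase onward, every enzyme gene of the set except LDHB was below its control in both lines. These are 10 genes, a split at the aldolase step that was drawn after the values were seen. Their ratios ran from −0.47 to −0.15 in Z138 with a median of −0.26, and from −0.60 to −0.25 in Mino with a median of −0.39. The 6 genes from hexokinase to phosphofructokinase had medians of −0.04 and −0.14. ALDOA, the aldolase of most tissues, was at 816 FPKM with the hairpin and 981 in the control in Z138, and at 1023 FPKM with the hairpin and 1351 in the control in Mino. ALDOC, the brain-type aldolase, was at 29.3 FPKM with the hairpin and 36.0 in the control in Z138 and at 166 FPKM with the hairpin and 249 in the control in Mino. Both aldolases were below control in both lines, ALDOC with the wider gap in Mino.

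TPI1, which interconverts the triose phosphates, was at 709.9 FPKM with the hairpin and 893 in the control in Z138, and at 633 FPKM with the hairpin and 771 in the control in Mino. GAPDH, often used as a loading control, was at 5391 FPKM with the hairpin and 6428 in the control in Z138 and at 4797 FPKM with the hairpin and 5723 in the control in Mino. The hairpin cultures held 83.9% of the control level in Z138 and 83.8% in Mino. With trends in GC content and length removed, the GAPDH log2 ratios were less alike, at −0.13 in Z138 and −0.29 in Mino. PGK1, which makes the first ATP of the pathway, had 90.0% of its control in Z138 and 67.4% in Mino. PGAM1, the mutase of the next step, had 86.7% in Z138 and 68.9% in Mino. ENO1, the common enolase, was at 991 FPKM with the hairpin and 1194 in the control in Z138 and at 906 FPKM with the hairpin and 1176 in the control in Mino. ENO2, the neuronal enolase, was at 4.69 FPKM with the hairpin and 6.88 in the control in Z138 and at 93.9 FPKM with the hairpin and 112 in the control in Mino. PKM, pyruvate kinase, was at 469 FPKM with the hairpin and 557 in the control in Z138 and at 894 FPKM with the hairpin and 1141 in the control in Mino. Here the hairpin culture of each pair was the lower for all 7 genes. Several of these genes have near-identical processed pseudogenes, and the labels do not state how reads shared with those were counted, so their levels are uncertain to that extent.

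**Figure D2:**
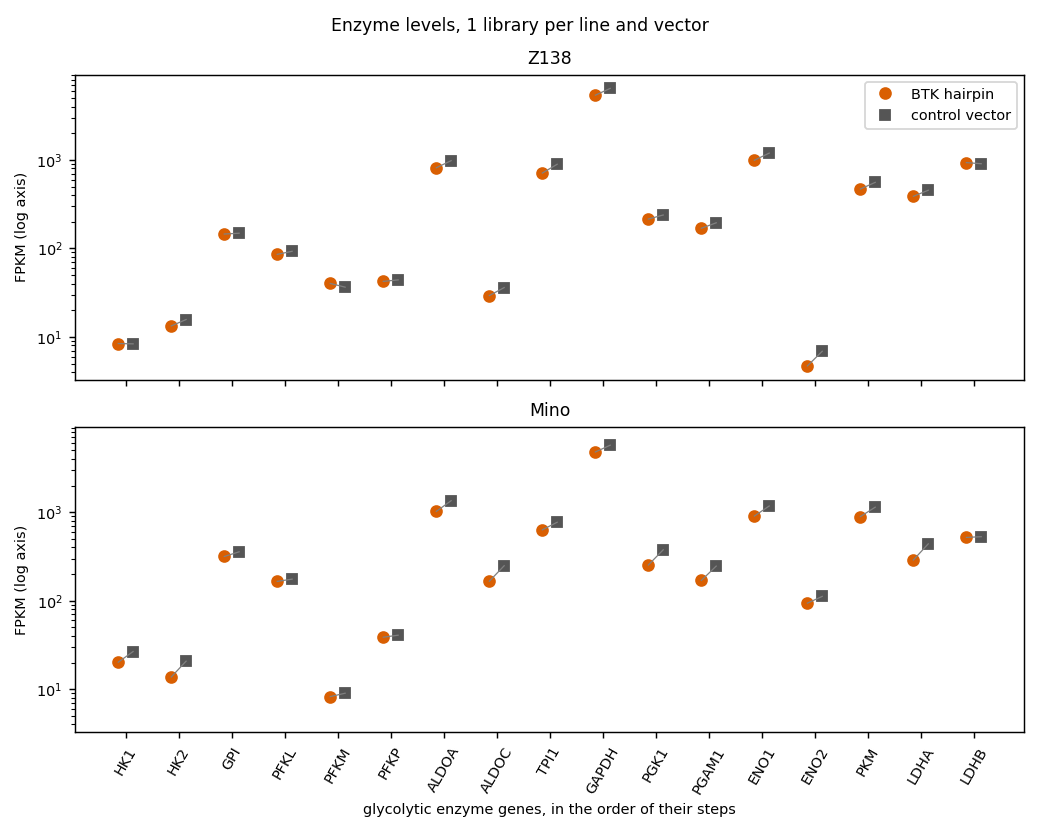
FPKM (log axis) of the 17 glycolytic enzyme genes in pathway order in Z138 (top) and Mino (bottom), with the hairpin culture (circles) beside the control culture (squares). From ALDOA to LDHA each circle lies below its square in both lines, whereas PFKL, PFKM, PFKP and LDHB lie nearly level.

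At the last step the 2 lactate dehydrogenase genes parted. LDHA, whose product favours making lactate and which HIF induces, was at 388 FPKM with the hairpin and 454 in the control in Z138, and at 289 FPKM with the hairpin and 439 in the control in Mino. LDHB, whose product favours the reverse reaction, was at 932 FPKM with the hairpin and 905 in the control in Z138 and at 519 FPKM with the hairpin and 529 in the control in Mino. The ratio of LDHA to LDHB within a library does not depend on how libraries are scaled. It was 0.416 with the hairpin and 0.502 in the control in Z138, and 0.556 with the hairpin and 0.83 in the control in Mino. The HK2 to HK1 ratio was likewise lower with the hairpin, at 1.58 against 1.88 in the control in Z138 and 0.68 against 0.778 in the control in Mino. For ENO1 over ENO2 the lines went opposite ways, with 211 in the hairpin culture against 174 in the control in Z138, and 9.65 in the hairpin culture against 10.5 in the control in Mino. The ALDOA to ALDOC ratio was higher with the hairpin, at 27.8 against 27.2 in the control in Z138 and 6.16 against 5.44 in the control in Mino.

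Summed over the 17 enzymes, the level was 10449 FPKM with the hairpin and 12235 in the control in Z138, and 10307 FPKM with the hairpin and 12743 in the control in Mino. This was 1.47% of all FPKM with the hairpin and 1.65% in the control in Z138, and 1.54% with the hairpin and 1.9% in the control in Mino. GAPDH alone made up 44.9% to 52.5% of these sums. The adjusted p of each enzyme across lines was 1.00 in limma; the lowest unadjusted value belonged to ALDOC, with a mean log2 ratio of −0.43 and an SE of 0.13, lower in both lines.

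Of the 3 regulators, PFKFB4 was below its control in both lines, the hairpin culture holding 68.1% of the control FPKM in Z138 and 70.6% in Mino. PFKFB3 and PFKFB4 are bifunctional enzymes that make and remove the fructose bisphosphate that activates phosphofructokinase, and both are HIF targets. PFKFB4 was at 5.08 FPKM with the hairpin and 7.46 in the control in Z138, and at 15.2 FPKM with the hairpin and 21.5 in the control in Mino. PFKFB3 was at 6.28 FPKM with the hairpin and 5.91 in the control in Z138 and at 6.87 FPKM with the hairpin and 11.2 in the control in Mino, so it was above its control in Z138 and below it in Mino. The PFKFB4 to PFKFB3 ratio was 0.808 with the hairpin and 1.26 in the control in Z138, and 2.21 with the hairpin and 1.92 in the control in Mino. PDK1, the kinase that keeps pyruvate out of mitochondria, was at 18.7 FPKM with the hairpin and 21.3 in the control in Z138 and at 6.90 FPKM with the hairpin and 8.95 in the control in Mino. Over both lines PFKFB4 had a mean log2 ratio of −0.48, with an SE of 0.13 and a limma adjusted p of 1.00.

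HIF1A lay on opposite sides of its control in the 2 lines. It was at 11.6 FPKM with the hairpin and 8.88 in the control in Z138, a log2 ratio of 0.35, and at 16.4 FPKM with the hairpin and 23.0 in the control in Mino, a ratio of −0.46. Among the 39 it alone was past 0.32 in opposite directions, as 1.04% of all tested symbols were. After removal of trends with GC content and length its ratios were 0.17 in Z138 and −0.45 in Mino. EGLN1, the principal oxygen-sensing hydroxylase, was at 5.36 FPKM with the hairpin and 5.71 in the control in Z138 and at 3.80 FPKM with the hairpin and 5.61 in the control in Mino. EGLN3, a HIF-induced hydroxylase, was at 3.40 FPKM with the hairpin and 2.59 in the control in Z138 and at 1.39 FPKM with the hairpin and 1.13 in the control in Mino. It was the only member above its control in both lines. Within a library, EGLN1 over EGLN3 was 1.57 with the hairpin and 2.2 in the control in Z138, and 2.73 with the hairpin and 4.98 in the control in Mino.

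The other HIF targets outside glucose metabolism were mostly lower in Mino and mixed in Z138. ANKRD37, an ankyrin repeat gene induced by HIF, was at 4.19 FPKM with the hairpin and 5.97 in the control in Z138, and at 14.4 FPKM with the hairpin and 25.5 in the control in Mino. Over both lines, each of them lower, its mean log2 ratio was −0.60, with an SE of 0.15 and a limma adjusted p of 0.81. BNIP3, a mitophagy receptor, was at 35.2 FPKM with the hairpin and 38.9 in the control in Z138 and at 20.5 FPKM with the hairpin and 31.7 in the control in Mino. Its relative BNIP3L was at 25.8 FPKM with the hairpin and 28.4 in the control in Z138 and at 32.9 FPKM with the hairpin and 37.4 in the control in Mino. The BNIP3 to BNIP3L ratio was 1.36 with the hairpin and 1.37 in the control in Z138, and 0.622 with the hairpin and 0.849 in the control in Mino. With trends in GC content and length removed, the log2 ratios of BNIP3 were −0.10 in Z138 and −0.62 in Mino. Those of BNIP3L were then −0.28 and −0.17, so the near-equal Z138 values hold without that correction only. P4HA1, a collagen prolyl hydroxylase subunit, was at 25.8 FPKM with the hairpin and 31.0 in the control in Z138 and at 51.6 FPKM with the hairpin and 61.9 in the control in Mino. These 4 genes were below control in both lines.

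CA9, a carbonic anhydrase that is among the most strictly HIF-dependent genes known, was at 0.953 FPKM with the hairpin and 3.23 in the control in Mino, with −1.11 as log2 ratio. The Z138 hairpin culture listed it at 0 and the Z138 control at 0.022 FPKM. DDIT4, an inhibitor of mTOR signalling that also answers to other stresses, was at 134 FPKM with the hairpin and 147 in the control in Z138 and at 115 FPKM with the hairpin and 103 in the control in Mino. It and EGLN3 were the members above control in Mino. ADM, the gene of the vasodilator adrenomedullin, had ratios of −0.23 in Z138 and −0.21 in Mino. VEGFA, the vessel growth factor, had −0.01 and −0.47. KDM3A, a histone demethylase, had 0.10 and −0.62. NDRG1, a stress-induced gene, had 0.18 and −0.47. MXI1, a MYC antagonist, had 0.23 and −0.34. MIF, a cytokine gene, had 0.05 and −0.36.

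The enzymes were set against the non-metabolic HIF targets. In Z138 the median ratio was −0.23 for the 17 enzymes and −0.05 for the 14 HIF targets, a difference of −0.17. At a pseudocount of 0.1 the HIF target median in Z138 was −0.11 and the difference −0.11, and among genes at 5 FPKM or more in the line they were −0.13 and −0.095. In Mino the medians were −0.35 and −0.41, a difference of 0.06. In Z138, 14 of 17 enzymes and 9 of 14 HIF targets were below control, where 43.7% of all tested symbols were. In Mino, 17 of 17 enzymes and 12 of 14 HIF targets were, where 51.9% of all tested symbols were. At 1.5-fold in Mino, 1 of 17 enzymes and 4 of 14 HIF targets were lower, beside 1.24% of all tested symbols. In both lines alike, 14 of 17 enzymes and 8 of 14 HIF targets were below control, beside 19.4% of all tested symbols. CA9 is counted there although it was near 0 in Z138. The genes were chosen with results known and the groups have 1 library each, so this difference was not tested.

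**Figure D3:**
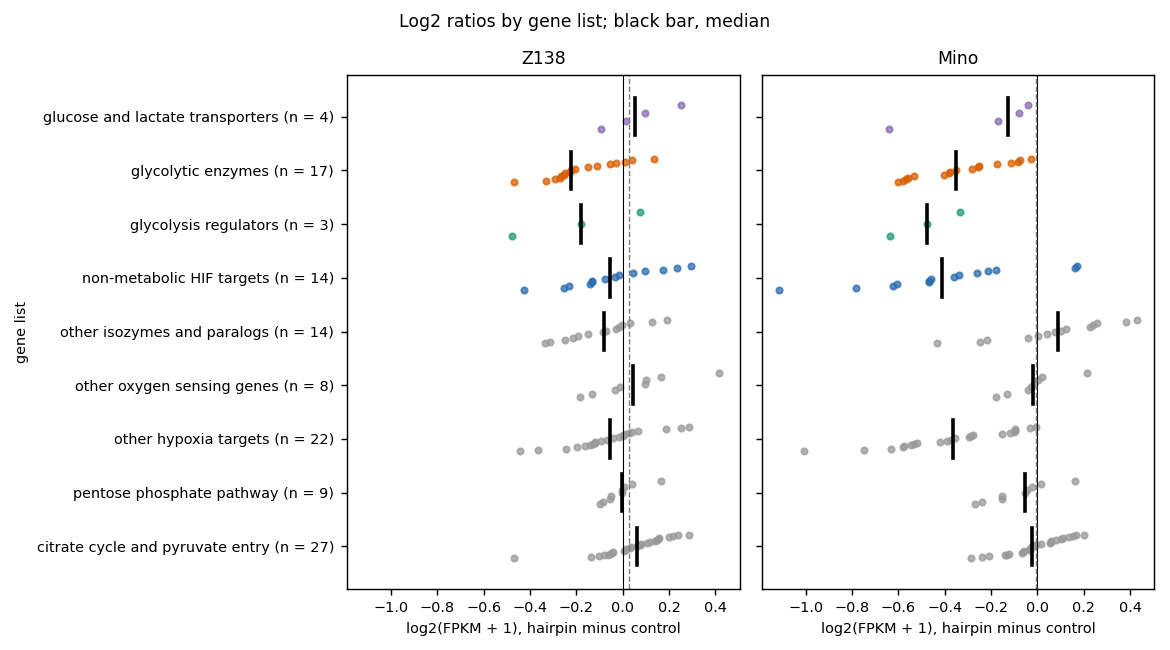
Log2(FPKM + 1), hairpin minus control, for each gene of the role groups (coloured) and of other pathway lists (grey) in Z138 (left) and Mino (right). Black bars are medians; those of the enzymes lie at −0.23 in Z138 and −0.35 in Mino, those of the non-metabolic HIF targets at −0.05 and −0.41.

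Other genes of the pathway were described from separate lists, and 0 of their members passed across lines in limma. These lists were also written with earlier results of these data known and use the same libraries, so they are no independent support. Of 34 further hypoxia targets 22 were tested, with medians of −0.06 in Z138 and −0.36 in Mino. Below control were 14 of 22 (63.6%) in Z138 and 22 of 22 in Mino, beside 43.7% and 51.9% of all tested symbols. At an unadjusted p under 0.05 in limma there were 2 (9.09%), beside 2.79% of all tested symbols. HILPDA, a HIF-induced lipid droplet gene, was at 27.0 FPKM with the hairpin and 35.1 in the control in Z138, and at 155 FPKM with the hairpin and 314 in the control in Mino (log2 ratio across lines −0.69, SE 0.16, adjusted p = 0.729 in limma). PPFIA4, a liprin gene, was at 1.41 FPKM with the hairpin and 2.27 in the control in Z138 and at 3.43 FPKM with the hairpin and 4.93 in the control in Mino. PLIN2, a lipid droplet coat gene, was at 15.6 FPKM with the hairpin and 18.7 in the control in Z138 and at 45.4 FPKM with the hairpin and 55.3 in the control in Mino.

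Neighbouring branches of glucose metabolism had medians closer to those of all genes. For 9 genes of the pentose phosphate pathway the medians were −0.0046 in Z138 and −0.05 in Mino, with 5 of 9 below control in both lines, where 19.4% of all symbols were. For 27 tested genes of the citrate cycle and pyruvate entry they were 0.06 and −0.02, with 4 of 27 below control in both lines. Of 11 other oxygen sensing genes 8 were tested, with medians of 0.04 and −0.02 and 3 of 8 below control in both lines. VHL, the ubiquitin ligase subunit that binds hydroxylated HIF1A, was at 20.8 FPKM with the hairpin and 18.4 in the control in Z138 and at 25.4 FPKM with the hairpin and 21.7 in the control in Mino. EGLN2, another hydroxylase, had ratios of −0.18 in both lines. Of 28 other isozymes and paralogs 14 were tested, with medians of −0.08 and 0.09. Of these, 11 of 14 (78.6%) were below control in Z138, where 43.7% of all symbols were, and 4 (28.6%) in Mino, where 51.9% were. Below control in both lines were 3 of 14 (21.4%), near the 19.4% of all symbols. PGM1, which links glycogen to glycolysis, had ratios of −0.31 and −0.22. In the same list the enolase gene ENO3 had ratios of −0.34 in Z138 and −0.04 in Mino, and PGAM2 had −0.07 and 0.23. LDHC, near 0 in Z138, had 0.08 in Mino. At an unadjusted p under 0.05 in limma there were 0 in each of these 4 lists, beside 2.79% of all tested symbols.

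The Z138 ratios moved with GC content. Across 10904 tested genes above 0 in all libraries, Spearman's rho between ratio and GC content of the longest transcript was −0.57 in Z138 and 0.12 in Mino, a description across genes that share their libraries. Between 50% and 55% GC, where 8 of the 17 enzymes fall, the median Z138 ratio of all genes was −0.03 and that of the enzymes −0.21. Between 55% and 60% GC it was −0.09 for all genes and −0.29 for the 5 enzymes there. Between 40% and 45% GC it was 0.12 for all genes, −0.08 for the 5 HIF targets there and −0.19 for the 2 enzymes there. The HIF target median was −0.01 between 50% and 55% GC (3 genes) and −0.18 between 55% and 60% GC (2 genes). With GC and length trends removed, the enzyme median was −0.18 in Z138 and −0.37 in Mino, and the HIF target median −0.03 and −0.37. Enzymes minus HIF targets then came to −0.15 in Z138, and the Mino difference came to 0.0016.

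**Figure D4:**
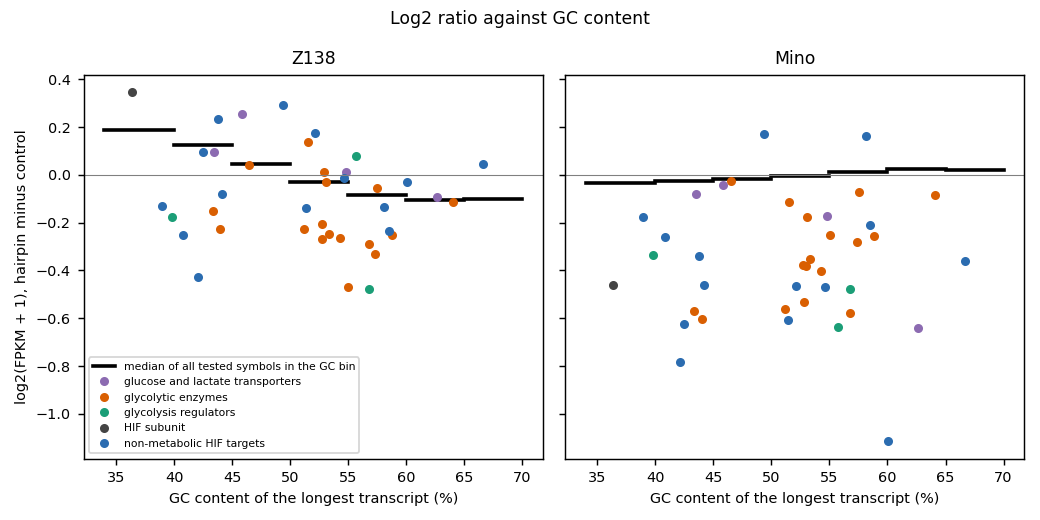
Log2(FPKM + 1), hairpin minus control, against GC content (%) for the 39 genes, coloured by role, in Z138 (left) and Mino (right). Black segments are medians of all tested symbols per GC bin, which run from 0.19 down to −0.10 in Z138 and stay between −0.04 and 0.02 in Mino.

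The lines also differed in how much of each gene they held, hairpin or not. The 2 libraries of a line, which differ in the hairpin, served as its replicates. In limma, 28 of 39 genes passed, 9 higher and 19 lower in Z138 than in Mino, where 28.7% of all tested symbols were called higher and 38.8% lower. The median difference over all tested symbols was −0.12 on this scale. It was −0.23 with libraries rescaled to an equal FPKM sum and −0.01 with median-ratio scaling, and the members' split was then 7 higher and 20 lower, or 11 higher and 16 lower.

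The neuronal enolase, adrenomedullin and the brain-type aldolase stood at the low end, and a glucose carrier and the muscle phosphofructokinase at the high end. ENO2 was the lowest in Z138 relative to Mino, with a log2 difference of −3.95 (SE 0.13, adjusted p = 2.25e-07 in limma). ADM followed at −2.66 (SE 0.12, adjusted p = 1.01e-06) and ALDOC at −2.61 (SE 0.13, adjusted p = 1.25e-06), both from limma. On the other side SLC2A3 was higher by 2.23 (SE 0.14, adjusted p = 5.05e-06) and PFKM by 2.03 (SE 0.13, adjusted p = 5.57e-06) in limma. SLC2A3 is near 0 in Mino and CA9 near 0 in Z138, so their size depends on the pseudocount: at 0.1 in place of 1, SLC2A3 was higher by 4.96, and CA9 differed by −4.08 in place of −1.51, below ADM and ALDOC in order. PDK1 was higher by 1.24 and LDHB by 0.81. HIF1A was lower in Z138 by a log2 difference of −0.88 (SE 0.19, adjusted p = 0.00422 in limma). Of the 10 genes from aldolase to LDHA, 5 were called lower in Z138: ENO2, ALDOC, PKM, PGK1 and ALDOA. Of all tested symbols 38.8% were called lower in Z138, and this group of 10 was drawn after the hairpin values were seen. PKM was lower by a log2 difference of −0.98 (adjusted p = 0.000125 in limma), with means of 513 FPKM in Z138 and 1017 in Mino. PGK1 (−0.45, adjusted p = 0.0188) and ALDOA (−0.39, adjusted p = 0.0163) were lower too in limma, but with median-ratio scaling their adjusted p was 0.0603 and 0.104. GAPDH, TPI1, ENO1, PGAM1 and LDHA had differences of −0.17 to 0.24 that did not pass, and LDHA passed with median-ratio scaling (0.36, adjusted p = 0.038 in limma).

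**Figure D5:**
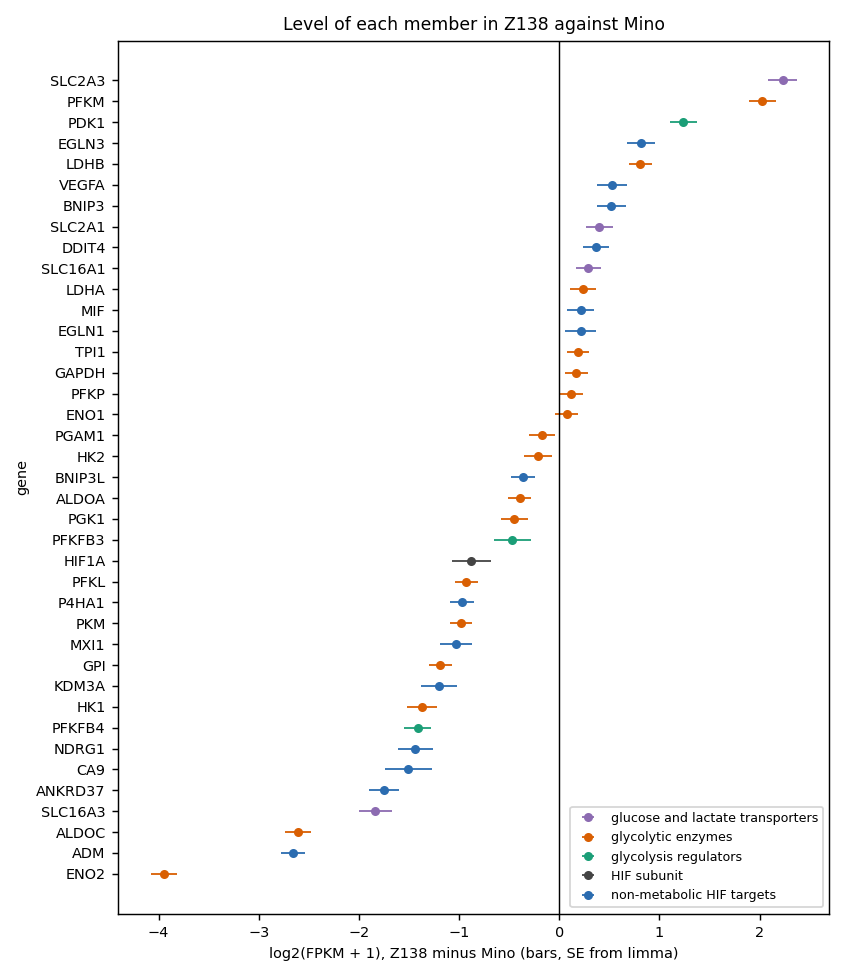
Log2(FPKM + 1) in Z138 minus Mino for the 39 genes, sorted, with the SE from limma as bars. SLC2A3 (2.23) and PFKM (2.03) are highest in Z138 and ENO2 (−3.95), ADM (−2.66) and ALDOC (−2.61) lowest.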

How the data were processed

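RNA of 4 cell line cultures was sequenced from an Illumina TruSeq RNA library, per the labels' protocols. The authors deposited FPKM values, 1 column per library, per the file headers; TopHat and the build hg19 are named in the submitters' processing notes, and neither the labels nor the header name the program behind the FPKM. No counts are given, so depth is unknown and no counting interval is printed.

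Values were analysed as log2(FPKM + 1), which understates changes of low genes. The test was limma 3.58.1 in R 4.3.3, with line and hairpin as terms and a mean-variance trend, on the 11484 symbols averaging 1 FPKM or more and Benjamini-Hochberg adjustment at 0.05. The labels pair each hairpin culture with the control of its own line, so the line was the block. It leaves 1 residual degree of freedom. The 2 lines are the only replication of the hairpin comparison, and nothing says cultures were repeated. Its p-values set the mean ratio of the 2 lines against a variance drawn largely from all tested symbols. That prior had 6.88 degrees of freedom, against 1 from the gene itself. They do not measure the spread among repeated cultures of a line. In the comparison of the lines, the hairpin and control libraries of each line took the place of replicates. Within a line there is no test. The fit was tested on simulated data.

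Members and lists were chosen with earlier results of these data known. Values are given for the members with the largest ratio alike in both lines, the extremes in each line, isozyme pairs and HIF1A, and up to 3 genes of each other list. GC content and length came from GENCODE release 29 (97.8% of tested symbols); trends were removed by cubic splines. Of the listed names, 4 were matched to older symbols through RefSeq synonyms.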

Additional observations from a re-analysis of the deposited data

Results flagged for a closer look

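HIF1A was singled out because its 2 lines went opposite ways. Its log2 ratio, hairpin minus control, was 0.35 in Z138 and −0.46 in Mino, a difference of 0.81, Z138 minus Mino. Each line had 1 library per vector, so the difference was not tested. With GC and length trends removed the ratios were 0.17 and −0.45.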

How the results depend on the processing

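No member passed the test across lines under any alternative run here, the lowest adjusted p over 308 member results being 0.183 in limma. The number of all symbols passing was 14 as reported (7 lower, 7 higher), against 2 without the filter on low values (both lower), 9 at a mean of at least 5 FPKM (6 lower, 3 higher), 25 with median-ratio scaling (10 lower, 15 higher), 28 without symbols listed at 0 (6 lower, 22 higher), 6 with the GC and length correction (all lower) and 0 with no replicate block. Without that pairing by line, 9 symbols and 0 members had an unadjusted p under 0.05. At a cutoff of 0.32 on the log2 scale in place of 1.5-fold, 23 members were lower in Mino and 4 in Z138. The medians of the members, enzymes and HIF targets kept their signs under every alternative run, as did the difference between enzymes and HIF targets, which ran from −0.18 to −0.095 in Z138 and from 0.0016 to 0.077 in Mino. Ratios across lines that turned sign were near 0 before and after, except that SLC2A3 was at 0.11 before. With median-ratio scaling these were DDIT4 (−0.0092), LDHB (−0.016), PFKM (−0.011) and SLC16A1 (−0.015). With the GC and length correction they were LDHB (−0.0084) and SLC16A1 (−0.037), and with a pseudocount of 0.1 SLC2A3 (−0.016). In the line comparison ENO1 turned to −0.043 with each library rescaled to an equal FPKM sum. The cause of these moves was not tested. BTK, with the ratio unmoved at −1.88, did not pass without the filter (adjusted p = 0.101 in limma) or with no replicate block (adjusted p = 1.00). No replicate could be left out, since each line and vector had 1 library; depth is unknown.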
